A study of Zea mays with 16 samples.

Results

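The genes of the small subunit of Rubisco and of its activase were followed in chilled maize leaves, 3 nuclear genes in all: ssu1 (Zm00001d052595) and ssu2 (Zm00001d004894), which encode the small subunit, and the Rubisco activase gene (Zm00001d048593). They were taken by their IDs and are 3 of the 46430 IDs in the count tables. Leaves of 4 lines were compared, each with 2 libraries from plants kept at 26 °C (controls, no treatment) and 2 from plants chilled at 4 °C, 16 libraries in 8 groups. B73 is the inbred behind the maize reference genome, B104 is a related inbred often chosen for transformation, and CML333 and M37W are founder lines of a maize mapping panel. All plants grew under days of 14 h and nights of 10 h, with an irradiance of 250 µmol per square metre and second. The sources used here do not give the length of chilling, the age of the plants or the time of day of sampling. Nothing in the labels says that replicates came from separate plants, so p-values measure the spread between these libraries, which may be technical.

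Rubisco joins carbon dioxide to ribulose bisphosphate, the entry step of the Calvin-Benson cycle. Its large subunit is encoded in the plastid by rbcL, and its small subunits are encoded by a family of nuclear genes and imported into the plastid. Activase is an ATPase that frees Rubisco's active sites from inhibitory sugar phosphates, and it is known for its sensitivity to temperature. In maize, a C4 plant, Rubisco and activase work mainly in the bundle sheath cells around the veins, where carbon dioxide is concentrated.

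The libraries held 1780344 to 2705564 counts of reads from the 3′ end of transcripts, and levels are CPM (a gene's count scaled to a fixed library total). Such reads come from 1 place per transcript, so counts carry no transcript length term. Replicates correlated across genes at r = 0.813 to 0.970, the lowest pair being the chilled CML333 libraries. The 2 B104 controls correlated with the other 14 libraries at 0.370 to 0.510, against 0.649 to 0.970 among those 14, and ENSRNA IDs (noncoding RNA) took 5.03% and 3.69% of their counts against at most 0.101% elsewhere. The library labelled chilled CML333 replicate 2 had a chilling score of -2.37, like the CML333 controls (-2.38 and -2.21), whereas the other 7 chilled libraries scored 1.38 to 1.97. The score sets 867 genes called as higher on chilling in B73 and also in M37W against 356 called as lower in each. It is a difference of medians on the log2(CPM + 1) scale, members left out. The scores of the B73 and M37W libraries therefore follow from the choice of genes. Chilled B104 scored 1.46 and 1.85, chilled CML333 replicate 1 scored 1.38, and the B104 controls scored -0.59 and -1.28. Among genes found on in only B73 or only chilled B104, CML333 controls and chilled CML333 libraries shared 77.0% of on or off states (87 genes), whereas control and chilled M37W shared 100% (91 genes). In the libraries labelled CML333, chilling and line therefore cannot be told apart.

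In chilled B73 leaves both small subunit genes stood above the controls. The level of ssu1 was 565.4 and 389.2 CPM in the controls and 1094 and 1227 CPM in the chilled libraries, a 2.43-fold difference in mean CPM. The level of ssu2 was 813.2 and 639.2 CPM in the controls and 993.8 and 1072 CPM in the chilled libraries, a 1.42-fold difference. For both genes each chilled library lay above both controls, as for 22.4% of the 17410 genes tested in B73.

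In M37W the chilled libraries stood below the controls. There ssu1 was at 593.6 and 676.2 CPM in the controls and at 350.6 and 421.9 CPM in the chilled libraries, 1.64-fold lower. The level of ssu2 was 1120 and 1259 CPM in the controls and 602.9 and 561.9 CPM in the chilled libraries, 2.04-fold lower. Both chilled libraries lay below both controls for either gene, as for 32.2% of the genes tested in M37W. In bulk leaf RNA, fewer bundle sheath cells and less RNA per cell cannot be told apart.

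**Figure D1:**
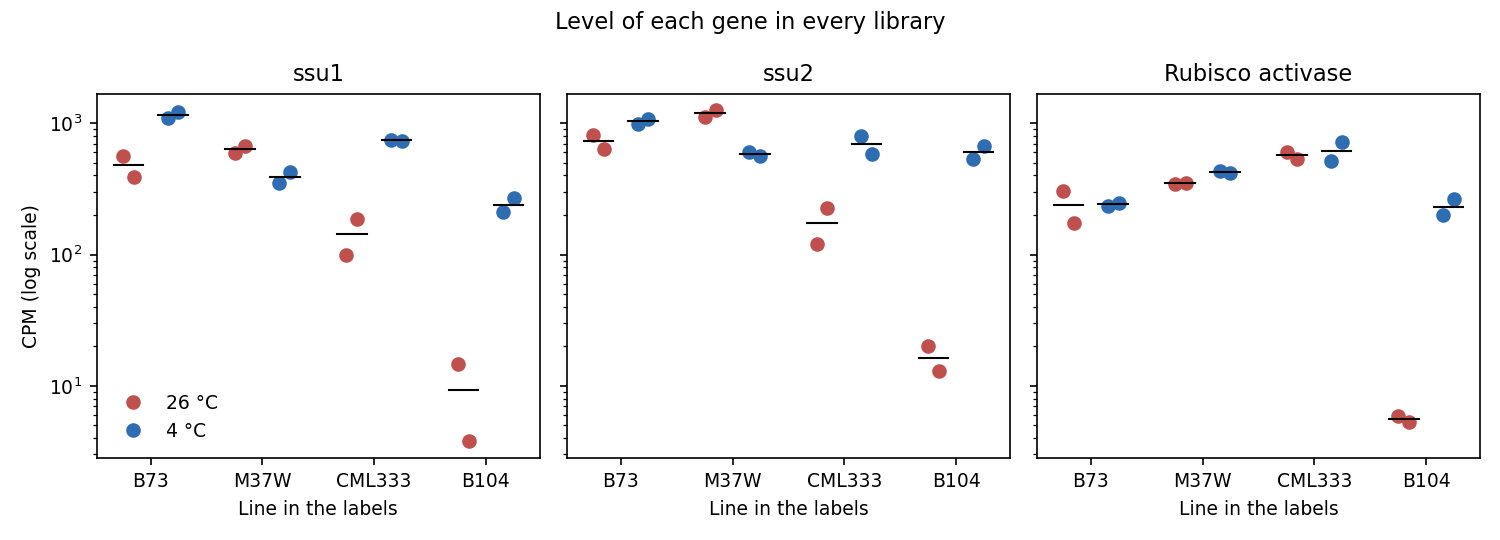
Level of ssu1, ssu2 and Rubisco activase in CPM (log axis) in every library, with controls at 26 °C in red and chilled libraries at 4 °C in blue, and a bar at each group's mean (n = 2). Both small subunit genes are higher in chilled than in control B73 and lower in chilled than in control M37W, and the B104 controls lie below all other libraries for all 3 genes.

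These differences were tested in edgeR's quasi-likelihood fit of all 16 libraries and, leaving out the lines with libraries that stood apart, in a fit of the 8 libraries of B73 and M37W. A gene was called at an adjusted p under 0.05. In B73 the fit of 16 called 0 of the 3 genes, against 3.46% of all genes. The log2 fold change, chilled minus control, was 1.57 for ssu1 (SE 0.488, edgeR adjusted p 0.0841) and 0.80 for ssu2 (SE 0.405, edgeR adjusted p 0.270). Of the members, ssu1 had an unadjusted p under 0.05 there (0.00610), and DESeq2 and limma with voom called it (adjusted p 0.00593 and 0.0460), along with 7.17% and 5.32% of genes. With 1 library left out it was called without either B104 control (edgeR adjusted p 0.0358 and 0.0366) or either chilled CML333 library (0.0346 and 0.0344), and in no other case. In the fit of 8 both small subunit genes rose in B73, against 27.8% of genes called and 15.8% called as higher, with log2 fold changes of 1.57 for ssu1 (SE 0.254, edgeR adjusted p 0.000247) and 0.79 for ssu2 (SE 0.240, edgeR adjusted p 0.0208). When each of the 8 libraries was left out in turn, the rise of ssu1 was called in 8 of 8 fits, while that of ssu2 was lost without chilled B73 replicate 2 (edgeR adjusted p 0.0986).

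In M37W the fit of 16 called 0 of the 3 genes, against 0.408% of all genes. The log2 fold change was -0.66 for ssu1 (SE 0.480, edgeR adjusted p 0.546) and -0.97 for ssu2 (SE 0.406, edgeR adjusted p 0.263), and ssu2 had an unadjusted p of 0.0313. With 8 libraries, where 18.9% of genes were called, 8.35% as lower, ssu2 fell by 0.98 on the log2 scale (SE 0.241, edgeR adjusted p 0.00892). The value for ssu1 was -0.67 (SE 0.251) and missed the threshold (edgeR adjusted p 0.0742), whereas the M37W libraries fitted alone called it (-0.64, edgeR adjusted p 0.00395, with 31.8% of genes called). It was also called without B73 control replicate 1 or 2 (edgeR adjusted p 0.0229 and 0.0225). The fall of ssu2 was lost without control replicate 2, chilled replicate 1 or chilled replicate 2 of M37W (edgeR adjusted p 0.116, 0.0762 and 0.117).

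The responses of the 2 lines differed in the fit of 8 for both small subunit genes, where this test called 10.1% of all genes. The B73 response exceeded that of M37W by 2.24 on the log2 scale for ssu1 (SE 0.356, edgeR adjusted p 0.000790) and by 1.77 for ssu2 (SE 0.340, edgeR adjusted p 0.00341). Both differences were called in 8 of 8 fits with 1 library left out, with edgeR adjusted p up to 0.0134 and 0.0357. With all 16 libraries, where 0.00574% of genes were called, the same differences of 2.24 and 1.77 missed the threshold (edgeR adjusted p 0.256 and 0.274), while DESeq2 called both (adjusted p 0.0258 and 0.0452, with 1.17% of genes called).

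Because ssu1 and ssu2 encode closely related proteins, reads may have been split between them, and how the authors counted reads that align to more than 1 gene is unknown here. Their sum (ssu1 + ssu2, summed counts) does not depend on such a split. If reads that align to both genes were left out of the counts, the sum lacks them too. Fitted with 8 libraries, ssu1 + ssu2 rose in B73 by 1.15 on the log2 scale (SE 0.248, edgeR adjusted p 0.00255). It fell in M37W by 0.86 (SE 0.247, edgeR adjusted p 0.0215). The difference of the 2 responses was 2.02 (SE 0.350, edgeR adjusted p 0.00163). These tests of the sum were added after the data were seen, and 27.8%, 18.9% and 10.1% of all features were called in them. With 16 libraries, where the same tests called 3.42%, 0.408% and 0.00574% of features, all 3 values missed the threshold (edgeR adjusted p 0.136, 0.354 and 0.255).

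In the libraries labelled CML333 the small subunit genes were low in the controls. The level of ssu1 was 99.3 and 187.3 CPM in the controls and 743.0 and 734.0 CPM in the chilled libraries. For ssu2 it was 120.3 and 224.5 CPM in the controls and 794.0 and 584.3 CPM in the chilled libraries. Neither gene's groups overlapped, as for 20.1% of genes on the higher side. Both genes rose in the fit of 16, where 15.4% of genes were called, 10% as higher, with log2 fold changes of 2.60 for ssu1 (SE 0.507, edgeR adjusted p 0.00473) and 2.24 for ssu2 (SE 0.422, edgeR adjusted p 0.00390). Chilled replicate 2, whose chilling score was that of a control, had small subunit levels close to those of chilled replicate 1 and far above the 2 controls. Without it the log2 fold changes were 2.61 and 2.44, with only chilled replicate 1 left in the group. That library shared 74.7% and 73.9% of on or off states with the 2 controls, against 81.0% and 79.8% for chilled replicate 2. The larger value for ssu2 can therefore not be assigned to chilling rather than line. Both calls were lost without control replicate 1 (2.14 and 1.79, edgeR adjusted p 0.0830 and 0.0777) and when the 4 CML333 libraries were fitted alone (edgeR adjusted p 0.0626 and 0.0901).

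In B104 all 3 genes were near the bottom of their range in the controls. The controls held 40 and 10 counts of ssu1, 54 and 34 of ssu2, and 16 and 14 of activase, which is 14.8 and 3.78, 19.96 and 12.9, and 5.91 and 5.29 CPM. Small subunit transcripts are a defining product of green leaf, and in the other 14 libraries ssu1 was at 99.3 CPM or more and ssu2 at 120.3 CPM or more. These 2 controls are labelled leaf as well, and why the members were so low in them was not tested. Each chilled B104 library lay above both controls for each member, as for 36% of genes. The chilled B104 libraries had 211.4 and 268.9 CPM of ssu1, 531.0 and 665.9 CPM of ssu2, and 199.8 and 263.1 CPM of activase. In the fit of 16 the contrast of chilled B104 against these controls called 51.8% of all genes, 27.3% as higher. All 3 members were called as higher, with log2 fold changes of 4.79 (SE 0.573), 5.26 (SE 0.488) and 5.41 (SE 0.442). Their edgeR adjusted p-values were 2.70e-05, 5.37e-06 and 4.09e-06, and the calls held in 16 of 16 fits with 1 library left out. The value of ssu1 was 5.92 without B104 control replicate 1 and 4.23 without B104 control replicate 2 (edgeR adjusted p 4.14e-05 and 0.000166). Mitochondrial IDs took 1.20% and 1.52% of counts in the B104 controls, against at most 0.354% in the other libraries. Their part, and that of the ENSRNA share, in the difference was not tested. In B104, chilling and whatever set these controls apart cannot be told apart.

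Outside B104, activase showed smaller differences between temperatures than the small subunit genes. In B73 its level was 305.5 and 173.0 CPM in the controls and 233.4 and 248.3 CPM in the chilled libraries, so the chilled values lay between the 2 controls. In M37W it was 346.2 and 349.0 CPM in the controls and 429.4 and 418.4 CPM in the chilled libraries, which lay 1.22-fold above the controls without overlap, as for 27.7% of genes. In the CML333 libraries it was 602.6 and 538.3 CPM in the controls and 517.1 and 716.7 CPM in the chilled libraries, which overlapped.

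The log2 fold change of activase was 0.31 in B73 (SE 0.355), 0.34 in M37W (SE 0.354) and 0.34 in CML333 (SE 0.354), and all missed the threshold in the fit of 16 (edgeR adjusted p 0.660, 0.689 and 0.582). In the fit of 8 the 95% interval ran from -0.24 to 0.85 in B73 and from -0.20 to 0.88 in M37W, so changes up to these bounds are within the error. The TMM factors put log2 fold changes 0.28 higher in B73 and 0.24 higher in CML333 than library totals do, and with library totals the B73 value of activase was 0.01. It also depends on the controls, with 0.69 without control replicate 1 (edgeR adjusted p 0.0488) and -0.02 without control replicate 2 in the fit of 8. The B73 and M37W responses of activase differed by -0.03 (SE 0.361, edgeR adjusted p 0.985, 95% interval -0.80 to 0.73).

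**Figure D2:**
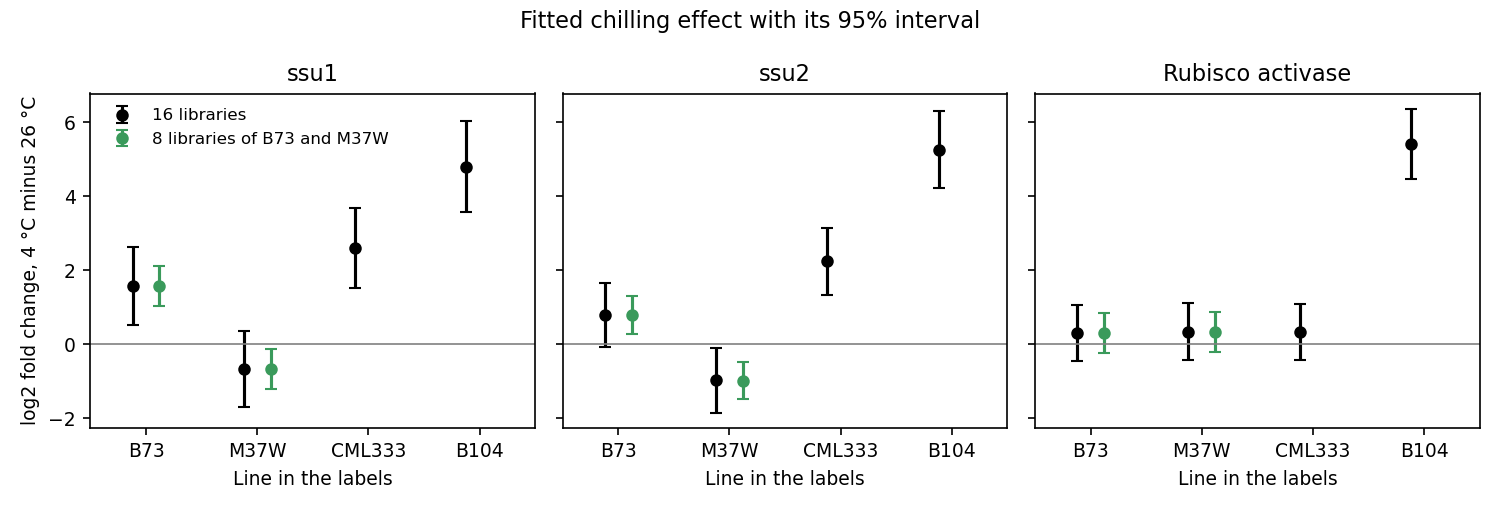
Fitted log2 fold change (4 °C minus 26 °C) of each gene in each line, with its 95% interval, in edgeR's fit of all 16 libraries (black) and of the 8 libraries of B73 and M37W (green). For the small subunit genes the B73 and M37W points lie on opposite sides of 0, while the activase points of B73, M37W and CML333 lie between 0.30 and 0.35.

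Averaged over the 4 lines, all 3 genes rose in the fit of 16, by 2.08 for ssu1 (SE 0.251), 1.83 for ssu2 (SE 0.209) and 1.60 for activase (SE 0.185), with edgeR adjusted p of 9.36e-05, 7.79e-05 and 7.95e-05, where 36.9% of genes were called, 22.4% as higher. These means include the B104 controls, which stood apart, and the CML333 libraries, where chilling and line cannot be told apart. In M37W alone the values of ssu1 and ssu2 were below 0 (-0.66 and -0.97, not called). Averaged over B73 and M37W in the same fit, the values were 0.46, -0.09 and 0.33, and 0 of 3 were called (edgeR adjusted p 0.451, 0.924 and 0.473) against 7.73% of genes. In the fit of 8, where this test called 29.1%, they were 0.45, -0.09 and 0.32 (edgeR adjusted p 0.0639, 0.733 and 0.198), and without B73 control replicate 1 those of ssu1 and activase were called (edgeR adjusted p 0.0137 and 0.0175). A difference among the 4 responses was called for all 3 genes in the fit of 16 (edgeR adjusted p 0.000687 for ssu1, 9.11e-05 for ssu2 and 7.61e-05 for activase), as for 35.3% of genes. For activase the response in B104 was 5.41 and those of the other 3 lines were 0.31 to 0.34.

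The balance between the small subunit genes also varied. In B73, ssu1 made up 41.0% and 37.8% of the small subunit counts in the controls (95% Wilson intervals 39.4 to 42.6 and 36.0 to 39.8) and 52.4% and 53.4% in the chilled libraries (51.0 to 53.8 and 51.8 to 54.9). In M37W its share was 34.6% and 34.9% in the controls and 36.8% and 42.9% in the chilled libraries. In the CML333 libraries it was 45.2% and 45.5% in the controls and 48.3% and 55.7% in the chilled libraries. In B104 it was 42.6% and 22.7% in the controls, which rest on 94 and 44 counts (33.04 to 52.65 and 12.84 to 36.99), and 28.5% and 28.8% in the chilled libraries. These intervals cover counting error only.

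In B73, M37W and CML333 each chilled library thus had a higher ssu1 share than both of its controls. For CML333, chilling and line cannot be told apart. The shares may also depend on how reads that align to both genes were counted, which is unknown here. Over the 4 lines the log2 ratio of ssu1 to ssu2 was 0.32 higher on chilling, with p = 0.123 in an exact two-sided permutation test within lines. The test had 1296 arrangements and a smallest possible p of 0.00154. With 1 library left out it became a call without B104 control replicate 1 (0.48, exact permutation p = 0.00154) and in none of the other 15 cases, and it was 0.15 without B104 control replicate 2 (exact permutation p = 0.515). Without the B104 line, but with CML333, the difference was 0.49 (exact permutation p = 0.00926, the smallest that 216 arrangements can give). In B73 and M37W alone it was 0.55 (exact permutation p = 0.0556, again the smallest possible). Within 1 line, 2 libraries against 2 cannot go below an exact p of 0.3333.

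Activase counts per 100 small subunit counts were 22.2 and 16.8 in B73 controls and 11.2 and 10.8 in chilled B73. In M37W they were 20.2 and 18.03 in the controls and 45.0 and 42.5 in the chilled libraries. The groups did not overlap in either line, and the log2 ratio moved by -0.81 in B73 and by 1.20 in M37W. In the CML333 libraries there were 274.5 and 130.7 activase counts per 100 in the controls, the 2 highest values of the 16 libraries, and 33.6 and 54.4 in the chilled libraries. In B104 there were 17.0 and 31.8 in the controls and 26.9 and 28.1 in the chilled libraries, which lay between the controls although all 3 genes were far lower there. Over the 4 lines the log2 ratio changed by -0.38 (exact two-sided permutation p = 0.377). That mean was 0.21 without the CML333 line (exact permutation p = 0.472) and 0.19 in B73 and M37W alone (exact permutation p = 0.556).

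**Figure D3:**
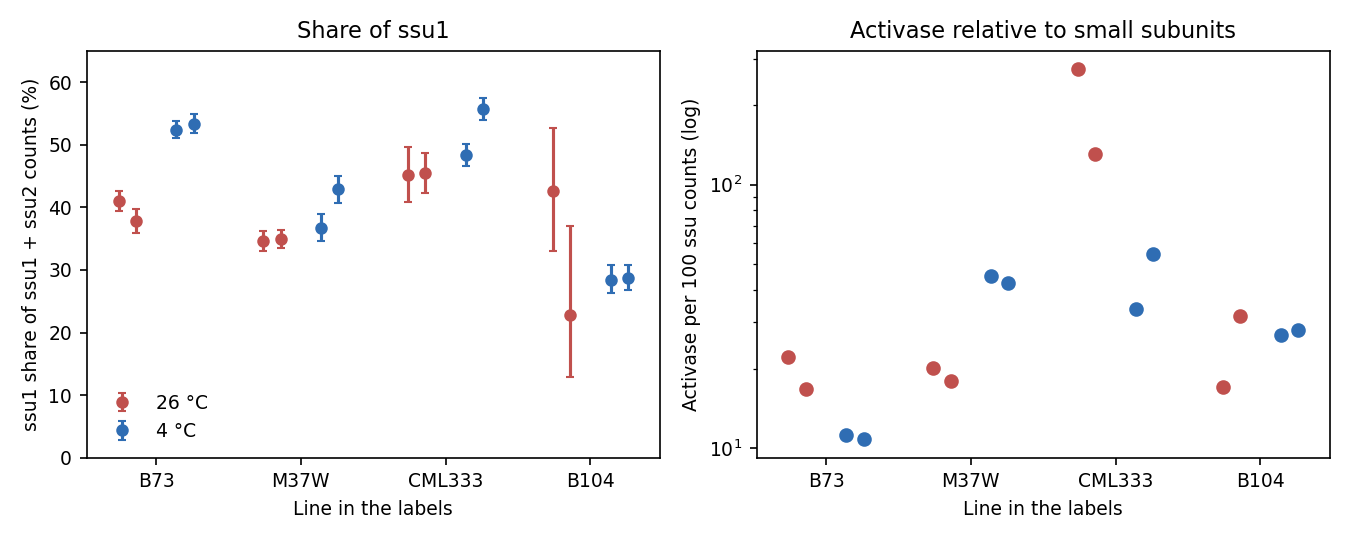
Left, share of ssu1 in the small subunit counts of each library in percent, with 95% Wilson intervals. Right, activase counts per 100 small subunit counts (log axis), with controls in red and chilled libraries in blue. The ssu1 share is above 50% in both chilled B73 libraries, and activase exceeds 100 in the 2 CML333 controls only.

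Across the 8 groups ssu1 was highest in chilled B73 (1161 ± 94.1 CPM, SD, n = 2), followed by chilled CML333 (738.5 ± 6.42), control M37W (634.9 ± 58.4), control B73 (477.3 ± 124.6), chilled M37W (386.2 ± 50.4), chilled B104 (240.2 ± 40.7), control CML333 (143.3 ± 62.3) and control B104 (9.28 ± 7.78). Among neighbours in that order, only the libraries of control B73 and chilled M37W overlapped. The order for ssu2 began with control M37W (1189 ± 98.7 CPM) and chilled B73 (1033 ± 55.5). Control B73 (726.2 ± 123.0), chilled CML333 (689.1 ± 148.3), chilled B104 (598.4 ± 95.4) and chilled M37W (582.4 ± 29.0) followed, each overlapping with the next. Control CML333 (172.4 ± 73.7) and control B104 (16.4 ± 5.02) came last.

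Activase ran in another order, with chilled and control CML333 on top (616.9 ± 141.1 and 570.5 ± 45.4 CPM), which overlapped. Chilled M37W (423.9 ± 7.75) and control M37W (347.6 ± 1.98) came next without overlap. Chilled B73 (240.8 ± 10.5), control B73 (239.3 ± 93.7) and chilled B104 (231.5 ± 44.8) overlapped with their neighbours, and control B104 (5.60 ± 0.438) was last. Leaving out the B104 controls, the members ranked from 82 to 1757 among all IDs of a library by count.

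**Figure D4:**
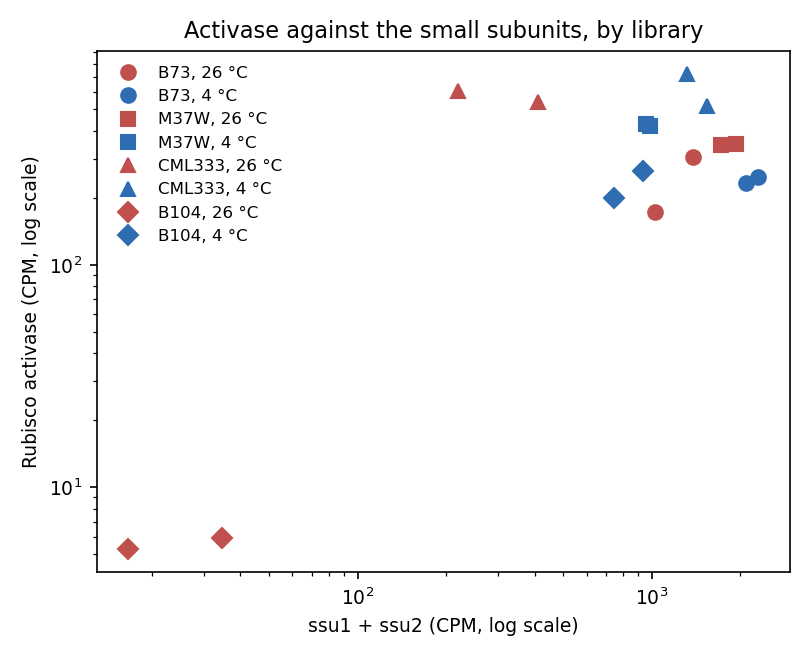
Summed small subunit level (x axis) against activase level (y axis) in each of the 16 libraries, both in CPM on log axes. The CML333 controls combine a small subunit level of 219.5 and 411.8 CPM with activase of 602.6 and 538.3 CPM, and the B104 controls lie at the lower left.

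Between lines at the same temperature, 18 tests were made at each temperature, 6 pairs of lines for 3 genes. How well the reads of each line aligned to these gene IDs was not tested. Lines were taken from the labels, and control and chilled libraries labelled CML333 shared only 77.0% of on or off states. At 26 °C 14 of the 18 were called in the fit of 16, of which 9 involved the B104 controls, where 49%, 49.3% and 50.6% of all genes were called for B73, CML333 and M37W against B104. Control CML333 was below control B73 by 1.72 for ssu1 and 2.06 for ssu2 on the log2 scale (edgeR adjusted p 0.0252 and 0.00428) and above it by 1.27 for activase (edgeR adjusted p 0.0235), with 20.2% of genes called. Control CML333 was also below control M37W by 2.31 and 2.95 for the small subunit genes (edgeR adjusted p 0.0156 and 0.00354, 7.47% called). Of these calls, those for ssu1 were lost without any 1 of the 4 controls compared (edgeR adjusted p up to 0.240 against B73 and 0.167 against M37W). That for activase was lost without B73 control replicate 2 or either CML333 control (up to 0.192), and those for ssu2 without CML333 control replicate 1 (0.0806 and 0.0562).

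Between control B73 and control M37W 0 of 3 members were called in the fit of 16, with edgeR adjusted p of 0.510 for ssu1, 0.199 for ssu2 and 0.239 for activase (9.48% of genes called). Among the 8 libraries, with 29.8% called, B73 was lower than M37W by 0.89 for ssu2 (edgeR adjusted p 0.00989) and by 0.73 for activase (edgeR adjusted p 0.0409). Leaving out 1 of the 8 libraries lost the call for ssu2 once (edgeR adjusted p 0.111, without control M37W replicate 2) and that for activase without B73 control replicate 2 or any 1 of the M37W libraries (up to 0.226). For ssu1 the difference of -0.60 was called without B73 control replicate 1 (edgeR adjusted p 0.0240) and missed the threshold otherwise (0.0831).

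At 4 °C 4 of the 18 tests were called in the fit of 16. Chilled B73 exceeded chilled B104 in ssu1 by 2.16 on the log2 scale (edgeR adjusted p 0.0236, 4.89% called) and chilled M37W by 1.64 (edgeR adjusted p 0.0453, 11.1% called). Chilled CML333 exceeded chilled B73 and chilled B104 in activase by 1.31 and 1.25 (edgeR adjusted p 0.0305 and 0.0386, 11.5% and 11% called). Its replicate 2 had a chilling score of -2.37, like the CML333 controls. With 1 library left out, the B73 against B104 call was lost in 4 of 16 fits (without any 1 of the chilled libraries compared), the B73 against M37W call in 12, and the activase calls in 7 and 11 (edgeR adjusted p up to 0.278). Between B104 and M37W 8.67% of genes were called, between CML333 and M37W 10.4%, and no member. Among the 8 libraries, with 31.8% called, chilled B73 was above chilled M37W by 1.64 for ssu1 (edgeR adjusted p 0.000133) and 0.88 for ssu2 (edgeR adjusted p 0.0103) and below it by 0.76 for activase (edgeR adjusted p 0.0313). The ssu1 call held in 8 of 8 fits with 1 of these libraries left out, the ssu2 call in 6 (lost without either chilled M37W library, edgeR adjusted p 0.0706 and 0.118) and the activase call in 2 (without either B73 control).

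The large subunit could not be followed with these libraries. The plastid gene rbcL (ZemaCp032) had 1 count over all 16 libraries. The kit primes on poly(A) tails. Of 45 plastid photosynthesis IDs in the list, 10 had any count and 3 passed the filter on low counts: psaJ, a photosystem I subunit, petD, a cytochrome b6f subunit, and atpF, an ATP synthase subunit. In the fit of 16, psaJ and petD were called as higher in chilled B104 (edgeR adjusted p 0.0253 and 0.0350). Both B104 controls had 0 counts of each. The chilled B104 libraries had 3 and 7 counts of psaJ and 22 and 6 of petD, also near the floor. In B73, CML333 and M37W 0 of 3 were called. The same contrast called 51.8% of all genes in B104, 27.3% as higher, against 3.46% in B73, 15.4% in CML333 and 0.408% in M37W. The lists of Calvin-Benson cycle enzymes (18 symbols), C4 cycle enzymes (9 symbols) and Rubisco assembly factors had 0 matches beyond the members and rbcL, since nuclear IDs here are not paired with names. The lists of marker genes for bundle sheath, mesophyll, endosperm, pollen, meristem, root and vascular tissue likewise had 0 matches beyond the members.

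The nuclear IDs whose profile was most like the 3 members, by mean Pearson r of log2(CPM + 1) over the 16 libraries, were Zm00001d045366 (mean r 0.939) and Zm00001d008963 (mean r 0.937) of 17143 compared. Both were at 0 to 2 counts in each B104 control. Zm00001d045366 was at 45.3 CPM or more and Zm00001d008963 at 17.6 CPM or more in the other libraries. Over the 8 libraries of B73 and M37W the mean r was 0.535 and 0.428, ranks 67 and 413. In those 8, Zm00001d008963 had r = 0.892 with ssu1, 0.607 with ssu2 and -0.22 with activase. The libraries of a group share their line and temperature, so these values describe the libraries only.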

How the data were processed

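Leaf RNA was made into 3′ end libraries with a QuantSeq forward kit and sequenced on an Illumina NextSeq500, per the labels' protocols. The authors deposited read counts per gene ID as whole numbers, 1 table per library. STAR and edgeR are named, per the submitters' processing notes; the sources used here give no version, genome build or annotation. The 4 deposited tables of scaled values per line were not used, and no gene positions or sequences are given because the reference table does not hold these nuclear IDs. The names of the 3 genes go with their IDs; other names came from RefSeq (Zm-B73-REFERENCE-NAM-5.0).

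Counts were fitted with edgeR 4.0.16 in R 4.3.3 (filterByExpr by group, 17410 IDs; TMM factors 0.845 to 1.20; estimateDisp, glmQLFit and glmQLFTest, robust), with 8 group means, no covariate and Benjamini-Hochberg adjustment over all genes tested, two-sided. The fit without B104 and CML333 tested 15174 IDs. The log2 fold changes carry standard errors (SE). The sum of ssu1 and ssu2, the fits of 8 with 1 library left out or a block, and the fit without the B104 controls were added after the data were seen. On and off meant at least 5 and at most 0.5 CPM. Fits were tested on simulated data. Alternatives used DESeq2 1.42.0 and limma 3.58.1. The other named IDs were the list genes with a match and the 2 nuclear IDs most alike in profile. Members, lists and tests were chosen with earlier results of these data known.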

Additional observations from a re-analysis of the deposited data

Results flagged for a closer look

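In the fit of all 16 libraries a difference among the chilling responses of the 4 lines was called for 35.3% of genes. It was called for ssu1, ssu2 and activase (edgeR adjusted p 0.000687, 9.11e-05 and 7.61e-05). The log2 responses in B73, B104, CML333 and M37W were 1.57, 4.79, 2.60 and -0.66 for ssu1, 0.80, 5.26, 2.24 and -0.97 for ssu2, and 0.31, 5.41, 0.34 and 0.34 for activase. The B104 value rests on control libraries that stood apart. In the fit of the 8 libraries of B73 and M37W, the difference between their responses was called for 10.1% of genes. It was called for ssu1 (2.24, edgeR adjusted p 0.000790) and ssu2 (1.77, edgeR adjusted p 0.00341). Both genes were above both controls in 2 of 2 chilled B73 libraries, as for 22.4% of genes. They were below both controls in 2 of 2 chilled M37W libraries, as for 32.2% of genes.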

How the results depend on the processing

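The log2 fold change of ssu1 in B73 (1.57, not called in the fit of 16) became a call with DESeq2 (1.64), limma with voom (1.59), no low-count filter (1.56), without B104 and CML333 (1.57, also with a replicate block, 1.56), with B73 alone (1.56) and without the B104 controls (1.61). That of ssu2 in B73 became one without B104 and CML333 (0.79, with a replicate block 0.79). In M37W, ssu2 became a call without B104 and CML333 (-0.98, with a replicate block -0.98) and with M37W alone (-0.95), and ssu1 with M37W alone (-0.64). In CML333 the calls for ssu1 and ssu2 were lost with its libraries alone (2.61 and 2.26). The difference between B73 and M37W became a call for ssu1 with DESeq2 (2.26) and without B104 and CML333 (2.24, with a replicate block 2.23), and for ssu2 likewise (1.79, 1.77 and 1.77); for activase it turned from -0.04 to 0.0050 with voom. Line differences called at 4 °C were 4 of 18, 0 at an adjusted p under 0.01 and 1 with the description number as a replicate block. The ssu1 to ssu2 log2 ratio became a call without the B104 line (0.49), and the activase ratio turned to 0.19 in B73 and M37W only and to 0.21 without CML333. The cause was not tested. The uncalled activase difference of B73 minus B104 at 4 °C turned to 0.057 with library totals.

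With 1 library left out, log2 fold changes ranged from -0.023 to 0.71 (activase), 1.36 to 1.81 (ssu1) and 0.67 to 0.92 (ssu2) in B73, from 5.25 to 5.66 (activase), 4.23 to 5.92 (ssu1) and 5.12 to 5.48 (ssu2) in B104, from 2.14 to 3.11 (ssu1) and 1.79 to 2.74 (ssu2) in CML333, and from -0.79 to -0.54 (ssu1) and -1.07 to -0.88 (ssu2) in M37W. Averaged over B73 and M37W they ranged from 0.16 to 0.52 (activase) and 0.35 to 0.57 (ssu1). Their difference between B73 and M37W ranged from -0.36 to 0.37 (activase), 2.02 to 2.47 (ssu1) and 1.64 to 1.90 (ssu2). At 4 °C, B73 minus B104 ranged from -0.25 to 0.16 (activase), B104 minus CML333 from -0.34 to 0.21 (ssu2) and CML333 minus M37W from -0.024 to 0.53 (ssu2). Line differences called ranged from 9 to 14 at 26 °C and 0 to 5 at 4 °C, and the ssu1 to ssu2 ratio from 0.15 to 0.48. Of 864 alternatives over 28 results, 771 were labelled as the same. For fold changes and ratios this meant the same direction and side of the threshold. For tests of any difference it meant the side of the threshold alone, and for counts of tests called a similar count.

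Genes called in B73 were 602, against 1249 with DESeq2, 927 with voom and 4212 without B104 and CML333; in M37W they were 71, against 604, 173 and 2864; in CML333 they were 2677, against 387 for that line alone. With 1 library left out of the 16, the B73 count was 8 to 48 without a B73 library, 269 to 339 without an M37W library or CML333 control, 554 to 885 without a B104 library, and 1984 and 1991 without a chilled CML333 library. The M37W count was 0 without any 1 M37W library by edgeR, the tool run there (1481 to 1810 genes at an unadjusted p under 0.05), 13 to 19 without a B73 library or CML333 control, 66 to 246 without a B104 library, and 1077 and 1087 without a chilled CML333 library. The CML333 count was 739 and 684 without control replicate 1 or 2 of CML333, 1283 and 3793 without its chilled replicate 1 or 2, and 2207 to 3168 without a library of another line. In B104 it was 6551 to 10124, against 9019. Correlations of deviations between libraries with the same title number were -0.04 to 0.10. With 2 libraries per group these give 1 value per line, too few to decide whether libraries were paired. A replicate block on title numbers changed no member's chilling call in the fit of 16 (ssu1 in B73 1.57, edgeR adjusted p 0.0945). A block on the description numbers changed none either, with 180 genes called in B73 and 1331 in CML333. The B104 control counts of 10 to 54 limit the precision of every B104 value.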
